A study of Mus musculus with 12 samples.

Results

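The genes described here encode core splicing factors: the SR proteins (Srsf genes), the heterogeneous nuclear ribonucleoproteins (Hnrnp genes), the proteins of the small nuclear ribonucleoproteins (Snrp genes), the SF3A and SF3B complexes and the U2AF factors. They were chosen by symbol alone, as every row of the count table whose name begins with Srsf and a digit, Hnrnp, Snrp, Sf3a or Sf3b and a digit, or U2af, leaving out processed pseudogenes. The rule found 50 of the 12145 rows, and all 50 entered the test. RNA came from C57BL6 mouse cortical cultures, dissected from E16.5-E17.5 embryos and infected with lentivirus (summed multiplicity of infection 2). The virus either carried miR-29c or was empty, and every culture, controls included, was infected. Cultures then underwent oxygen-glucose deprivation (OGD), which models ischemia by removing oxygen and glucose, for 3 h with 4 h of recovery, or the same rinses with normoxic incubation (sham). The sham groups are called sham-empty and sham-miR-29, and those exposed to OGD are OGD-empty and OGD-miR-29. Each had 3 labelled cultures dissected on different days, and 11 of the 12 labelled libraries held usable read counts, so sham-empty has n = 2 and the other groups n = 3.

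Splicing removes introns from pre-mRNA on the spliceosome, an assembly of small nuclear RNAs and proteins. SR proteins bind exonic sequences and recruit the spliceosome, whereas hnRNPs coat nascent RNA and often oppose exon inclusion. Sm proteins form a ring around the spliceosomal RNAs, U2AF marks the 3′ splice site, and SF3A and SF3B hold the U2 particle at the branch point. Neurons use extensive alternative splicing, and miR-29 is a microRNA family that increases as neurons mature. The table counts reads per gene and does not separate splice forms, so nothing here measures splicing itself.

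The libraries were shallow. Outside the 37 mitochondrial rows the counts summed to 231500 to 1362484 per library, and the mitochondrial rows held 57.6% to 84.1% of all counts. The splicing factor genes summed to 867 to 5465 reads per library, with 2 to 570 reads for any gene in any library. They took 0.315% to 0.401% of the non-mitochondrial counts. The lowest value was in OGD-empty replicate 2, the library that also had the lowest mitochondrial share, 57.6% against 73.1% to 84.1% in the other 10. All 8 of 8 listed neuron markers were measured, from Slc17a7 at 6 to 52 reads per library to Map2 at 303 to 2565. Rbfox3 had 20 to 141 reads, near the microglial Cx3cr1 at 20 to 120 and the astrocyte Slc1a3 at 21 to 205. Of the other lists, 4 of 5 astrocyte, 3 of 5 microglial, 2 of 5 oligodendrocyte, 1 of 3 cycling-cell and 0 of 4 endothelial markers were measured. In bulk cultures, fewer cells of a type and less RNA per cell cannot be told apart.

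The microRNA delivered by the virus is shown first, because the complement of its seed was searched for in the splicing factor transcripts. Its RefSeq mature form lies at chr1:195037600-195037621 on the plus strand (GRCm38.p6), and the capitals mark the seed, bases 2 to 8.
miR-29c-3p: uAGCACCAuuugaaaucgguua
The complement of the seed, TGGTGCT, was present in the longest annotated 3′ UTR (GENCODE M21, GRCm38) of 3 of the 50 genes, or 6%. Over all 10092 table genes with an annotated 3′ UTR the share was 16.8%, and the median 3′ UTR was 933 nt in the splicing factor genes against 1310 nt in all genes. The match in Hnrnpr rests on an annotated 3′ UTR of 19419 nt. The windows below show the match in capitals. They lie in Hnrnpr at chr4:136341389-136341415 on the plus strand, in Hnrnpul1 at chr7:25722149-25722175 on the minus strand, and in Srsf1 at chr11:88053238-88053264 on the plus strand.
Hnrnpr: tccccccgttTGGTGCTgggaattgaa
Hnrnpul1: ctgagtcctgTGGTGCTggggacagag
Srsf1: tttgtaggggTGGTGCTattttcagca
The match in Srsf1 is followed by an A, the longer form of a microRNA site. A match is a description of the letters only. None of the 3 genes was called in any comparison of the main fit. In the alternative fits that removed the trend on gene length, described below, Srsf1 was called lower for OGD-miR-29 against OGD-empty.

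Promoters are shown for Hnrnpd and Hnrnpu, which had the lowest adjusted p among the genes lower with miR-29 after OGD, and for Srsf7, which had the lowest among those higher. Each is the 250 nt before the RefSeq start (GRCm38.p6) on the minus strand, at chr5:99978939-99979188, chr1:178337816-178338065 and chr17:80207306-80207555. Capitals mark matches to any of 6 motifs searched on both strands, none of which contains another. The ETS core was read as CCGGAAG. The NRF1 element was read as GCGCATGC. The other motifs were the YY1 core AAGATGGCG, the E-box CACGTG, the CCAAT box and the TATA box as TATAAA.
Hnrnpd: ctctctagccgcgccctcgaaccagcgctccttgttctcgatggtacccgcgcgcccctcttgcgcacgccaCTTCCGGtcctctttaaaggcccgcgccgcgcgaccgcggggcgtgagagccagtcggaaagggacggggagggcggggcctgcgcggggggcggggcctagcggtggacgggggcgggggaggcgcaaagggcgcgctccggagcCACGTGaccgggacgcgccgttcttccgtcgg
Hnrnpu: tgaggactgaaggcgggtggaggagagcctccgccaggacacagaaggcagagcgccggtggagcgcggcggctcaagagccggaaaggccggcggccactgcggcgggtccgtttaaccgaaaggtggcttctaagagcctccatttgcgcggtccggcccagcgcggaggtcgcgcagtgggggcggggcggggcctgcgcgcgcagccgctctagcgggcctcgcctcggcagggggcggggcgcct
Srsf7: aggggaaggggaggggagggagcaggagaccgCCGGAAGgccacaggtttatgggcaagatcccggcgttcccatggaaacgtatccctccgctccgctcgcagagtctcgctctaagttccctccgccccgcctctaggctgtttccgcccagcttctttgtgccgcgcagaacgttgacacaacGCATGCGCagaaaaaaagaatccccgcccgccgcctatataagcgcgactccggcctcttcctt
Hnrnpd held an ETS core and an E-box, Srsf7 an ETS core and an NRF1 element, and Hnrnpu none of the 6. Of the 43 splicing factor genes found in the promoter table, 12 (27.9%) held the ETS core, against 13.7% of 7921 table genes and 7.05% of all 27025 promoters of that length. CCAAT was present in 46.5% against 35.5% of table genes and 34.5% of all promoters, and TATAAA in 11.6% against 5.80% and 13.0%. The NRF1 element was present in 4.65% against 4.58% and 2.32%, the E-box in 6.98% against 8.53% and 6.05%, and AAGATGGCG in 0 genes against 1.25% and 0.607%. Median GC content was 60.8% in the splicing factor promoters and 60.8% in those of the table.

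The first comparison asked what OGD did to these genes under the empty virus. Sf3a1, which encodes a subunit of the SF3A complex of the U2 particle, was the only splicing factor gene that passed the test. It had 3.98 and 2.32 CPM (counts scaled to library size with TMM) in sham-empty, and 11.4, 7.68 and 9.65 CPM in OGD-empty. All 3 OGD-empty libraries were above both sham-empty libraries. The log2 fold change was 1.73 ± 0.46 (SE, adjusted p = 0.0349, edgeR quasi-likelihood test). A gene is called here at an adjusted p under 0.05 over all 12119 genes tested. The call rests on 4 reads in each sham-empty library, and it was lost without replicate 1 or 2 of sham-empty and without replicate 1 or 3 of OGD-empty. Background calls were 5.09% of all genes, 1.48% higher and 3.61% lower, so 1 of 50 higher and 0 of 50 lower do not stand above the table as a whole.

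The other 49 genes did not pass in this comparison. Hnrnpd, also known as AUF1, a binder of AU-rich elements in mRNA, had 8.95 and 9.84 CPM in sham-empty and 21.9, 23.9 and 19.8 CPM in OGD-empty. These groups did not overlap, and the fold change was 1.21 ± 0.41 on the log2 scale (adjusted p = 0.0861). With the day of dissection as a replicate block it was 1.35 ± 0.40 (adjusted p = 0.0363), and 2 of the 50 genes, Hnrnpd and Sf3a1, were then called. Both were higher. The background with the block was 11.3%, with 689 genes higher and 680 lower of 12119. Hnrnpu, or SAF-A, a protein of the nuclear scaffold, stood at 35.8 and 40.5 CPM against 71.8, 61.4 and 59.0 CPM, again without overlap, with a log2 fold change of 0.75 ± 0.25 (adjusted p = 0.0822). Among the genes with negative values, Snrpd3 of the Sm ring had a log2 fold change of -1.13 ± 0.42 (adjusted p = 0.112) and Srsf7 one of -0.81 ± 0.31 (adjusted p = 0.119). An unadjusted p under 0.05 was reached by 9 of the 50 genes (18%), against 23.7% of all genes. Groups without overlap were found for 7 genes higher (14%, background 22%) and 9 lower (18%, background 21.6%). The median log2 fold change was -0.15 over the splicing factor genes and 0.02 over all genes.

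By role, all 3 U1 and U2 particle proteins and all 3 U2AF genes had negative values, as did 6 of the 7 Sm genes, with a median of -0.54. The 19 hnRNP genes divided into 9 positive and 10 negative (median -0.02), and the 11 SR genes into 4 positive and 7 negative (median -0.14). Of the 5 SF3B genes, 3 were positive (median 0.26), and of the 2 SF3A genes the called Sf3a1 was. Fold changes in this comparison rose with gene span over all genes (Pearson 0.45). With the trend on length removed within each library, 14 of the 19 hnRNP values were positive (median 0.15). So were 6 of the 11 SR values (median 0.13) and 1 of the 3 U2AF values (median -0.08). All 7 Sm genes, among them Snrpn with a changed sign, and all 3 U1 and U2 proteins were then negative (medians -0.39 and -0.24). The median over the 50 was -0.004 and that over all genes -0.03. Among the genes with the highest CPM of their role, Srsf1, a founding SR protein, had a log2 fold change of 0.32 ± 0.26, and Snrpn, the Sm protein abundant in neurons, 0.13 ± 0.24. Sf3b1, the SF3B subunit at the branch point, had 0.29 ± 0.25, U2af2, which binds the polypyrimidine tract, had -0.40 ± 0.27, and Snrpa1 of the U2 particle had -0.35 ± 0.54.

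In the authors' deposited table for OGD-empty against sham-empty, the false discovery rate was under 0.05 for 0 of the 50 genes. It was under 0.05 for 6 of all 12145 genes. The lowest rate among the 50 was that of Hnrnpd, 0.185, with a log2 fold change of 1.34 in the authors' deposited table. Sf3a1 had 1.24 there, with a rate of 0.368. Which libraries entered those fits is not given in the sources used here. In the authors' deposited table for OGD-miR-29 against sham-empty, 0 of the 50 genes and 2 of all genes had a rate under 0.05, and the lowest among the 50 was 0.97.

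The same exposure under the miR-29 virus gave no called splicing factor gene by edgeR's quasi-likelihood test, by DESeq2 or by limma-voom. The background was 0.0165%, 2 genes in the whole table. An unadjusted p under 0.05 was reached by 2 of the 50 genes (4%), against 9.17% of all genes. The groups did not overlap for 3 genes higher (6%, background 8.19%) and for 0 lower (background 8.69%). The non-overlapping genes were Hnrnpk, Hnrnpr and Sf3a3. The genes with an unadjusted p under 0.05 were Hnrnpd, with 15.2, 21.9 and 8.23 CPM in sham-miR-29 and 9.37, 3.94 and 7.21 CPM in OGD-miR-29, and Hnrnph3 of the hnRNP H and F family. For Hnrnpd the groups overlapped, although each OGD culture was below the sham culture of the same day, and the log2 fold change was -1.04 ± 0.33 (adjusted p = 0.452). For Hnrnph3 it was -0.83 ± 0.37 (adjusted p = 0.524). Median values were 0.06 for the splicing factor genes and -0.00 for all genes.

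Without OGD, the viruses were compared as sham-miR-29 against sham-empty. No splicing factor gene was called by edgeR, DESeq2 or limma-voom, and the background was 0% (0 genes). Sf3a1 was the only gene of the 50 (2%) with an unadjusted p under 0.05, against 3.34% of all genes. The groups did not overlap for 2 genes higher (4%, background 10.6%) and 6 lower (12%, background 11.9%). Sf3a1 had 7.58, 10.8 and 11.8 CPM in sham-miR-29, all above the 3.98 and 2.32 CPM of sham-empty (log2 fold change 1.77 ± 0.46, adjusted p = 1). This comparison shares the sham-empty libraries with the previous call for Sf3a1. Values for the other genes ran from -0.66 to 0.76, with a median over the 50 of -0.04 against -0.00 for all genes. The 3 genes with a seed match stood at 0.15 ± 0.26 (Srsf1), 0.07 ± 0.32 (Hnrnpr) and -0.20 ± 0.27 (Hnrnpul1) on the log2 scale.

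After OGD, the miR-29 and empty cultures differed in 12 of the 50 splicing factor genes, 7 higher and 5 lower with miR-29. The genes that rose included a pair of small SR proteins (Srsf7 and Srsf3) and a pair of Sm proteins (Snrpb and Snrpd2). Of the 5 that fell, 4 were hnRNPs, led by Hnrnpd and Hnrnpu, and 19 of the 50 genes are hnRNPs. This was also where the table as a whole differed most: 37.1% of all genes were called, 17.2% higher and 19.9% lower, against 24%, 14% and 10% of the splicing factor genes. Called genes were therefore a smaller share among the splicing factor genes than among all genes. Groups without overlap were found for 17 genes higher (34%, background 25%) and for 7 lower (14%, background 25.2%). An unadjusted p under 0.05 was reached by 18 of the 50 (36%), against 47.3% of all genes. The median was 0.09 over the 50 genes and 0.02 over all.

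**Figure D1:**
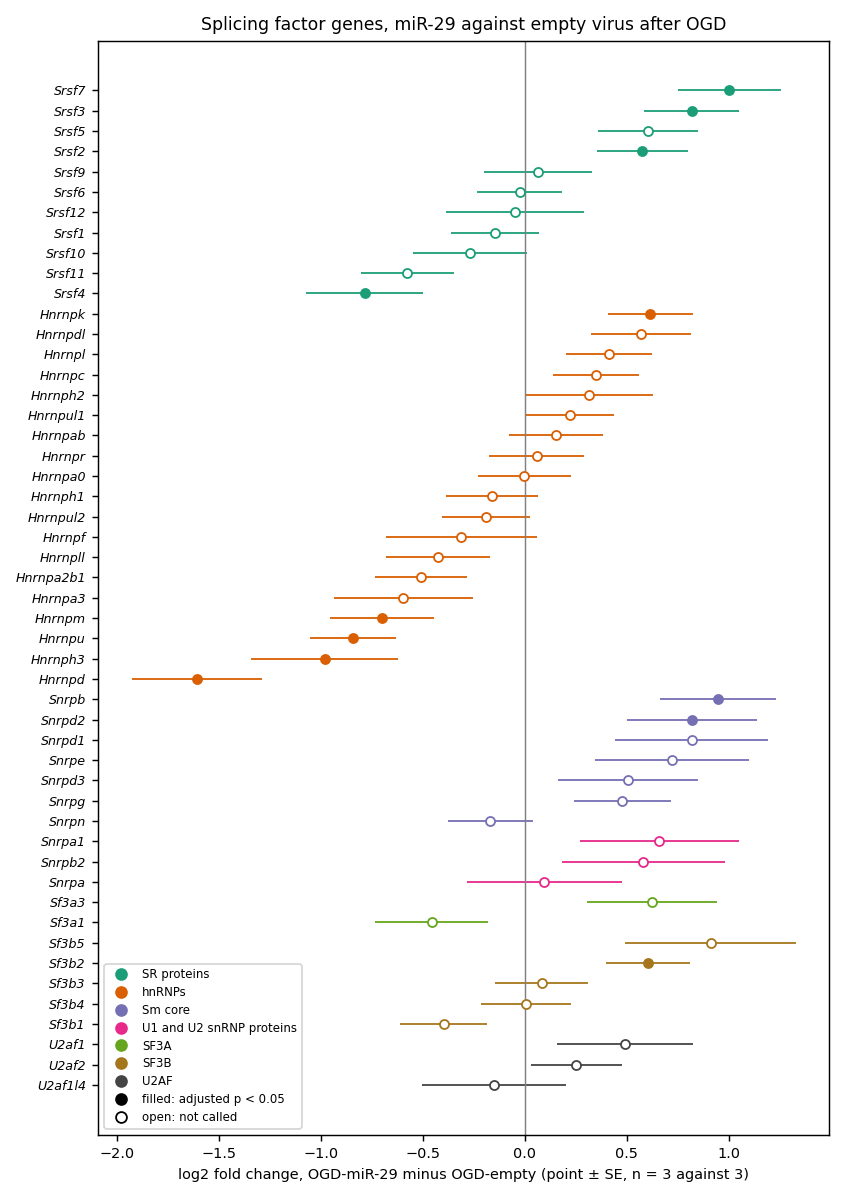
Log2 fold change of each of the 50 splicing factor genes, OGD-miR-29 minus OGD-empty (x axis; point ± SE, n = 3 against 3), with genes in rows grouped by role and filled points for an adjusted p under 0.05. Values run from -1.61 for Hnrnpd to 1.00 for Srsf7, and 6 of the 7 Sm genes lie to the right of 0.

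Among the 11 SR genes, 3 rose and 1 fell, where 17.2% of all genes rose and 19.9% fell. Srsf7, which acts in splicing and in mRNA export, had 14.5, 15.4 and 9.11 CPM in OGD-empty and 23.5, 20.5 and 37.0 CPM in OGD-miR-29. The groups did not overlap, and the sham libraries, at 18.1 to 24.2 CPM, lay between the OGD-empty and the highest OGD-miR-29 value. The log2 fold change was 1.00 ± 0.25 (adjusted p = 0.00519). Srsf3, the smallest SR protein and an export adaptor, had 19.0, 16.7 and 15.5 CPM against 34.7, 20.1 and 36.5 CPM (0.82 ± 0.23, adjusted p = 0.0102). Here too the groups did not overlap, although OGD-miR-29 replicate 2 was close to the highest OGD-empty library. Srsf2, known as SC35, stood at 20.1, 13.1 and 18.8 CPM against 27.0, 26.0 and 25.5 CPM (0.58 ± 0.22, adjusted p = 0.0465). Srsf4, a longer SR protein, was the member that fell, from 9.42, 12.6 and 10.2 CPM to 5.70, 8.27 and 4.33 CPM (-0.79 ± 0.29, adjusted p = 0.0365). Just outside the threshold were Srsf11 at -0.58 ± 0.23 (adjusted p = 0.0519) and Srsf5 at 0.60 ± 0.24 (adjusted p = 0.0565), so the SR genes did not share a direction. Srsf1 had -0.15 ± 0.22 (adjusted p = 0.618).

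Of the 19 hnRNP genes, 4 fell and 1 rose, against 19.9% lower and 17.2% higher over all genes. Hnrnpd (chr5:99955935-99978938, minus strand) had the largest difference of the 50 genes: its 9.37, 3.94 and 7.21 CPM in OGD-miR-29 were all below the 21.9, 23.9 and 19.8 CPM of OGD-empty. The log2 fold change was -1.61 ± 0.32 (adjusted p = 0.00128). The sham-empty libraries, at 8.95 and 9.84 CPM, were near the upper end of the OGD-miR-29 values. The sham-miR-29 libraries, at 15.2, 21.9 and 8.23 CPM, overlapped both OGD groups. Hnrnpu (chr1:178321108-178337797, minus strand) had 71.8, 61.4 and 59.0 CPM in OGD-empty and 40.4, 24.0 and 42.8 CPM in OGD-miR-29 (-0.84 ± 0.21, adjusted p = 0.00482). Its OGD-empty libraries were the 3 highest of all 11, since the sham libraries held 35.8 to 46.3 CPM. Hnrnph3 had 7.10, 7.23 and 8.58 CPM against 3.67, 4.73 and 2.88 CPM, which is 6 to 46 reads (-0.98 ± 0.36, adjusted p = 0.0377). Hnrnpm, a regulator that binds GU-rich RNA, had 13.1, 19.4 and 11.3 CPM against 8.63, 8.67 and 9.62 CPM (-0.70 ± 0.26, adjusted p = 0.0367). The called gene in the other direction was Hnrnpk, which binds C-rich RNA. It had 25.2, 16.7 and 28.4 CPM in OGD-empty and 36.4, 35.1 and 36.5 CPM in OGD-miR-29, without overlap (0.62 ± 0.21, adjusted p = 0.0269). The 14 hnRNP genes not called lay between -0.59 and 0.57.

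The Sm genes had the highest median of the larger role groups, 0.72, with 6 of 7 values above 0. Called were 2 of the 7, both higher, where 17.2% of all genes were called higher and 37.1% in either direction. Snrpb, which encodes the Sm proteins B and B′, had 6.18, 9.03 and 8.04 CPM in OGD-empty and 10.8, 15.4 and 18.3 CPM in OGD-miR-29. No libraries overlapped, and the log2 fold change was 0.95 ± 0.29 (adjusted p = 0.0143). Snrpd2, the Sm protein D2, had 5.56, 5.42 and 6.97 CPM against 8.63, 8.27 and 15.4 CPM (0.82 ± 0.32, adjusted p = 0.0491). All 3 OGD-miR-29 libraries were above all 3 OGD-empty libraries, and replicate 3 was the highest by far. Of those not called, Snrpd1 had 0.82 ± 0.37 (adjusted p = 0.0893) and Snrpe 0.72 ± 0.38 (adjusted p = 0.137), both without overlap between the groups. Snrpn was the exception, with 88.0, 128 and 81.5 CPM against 90.6, 69.7 and 104 CPM (-0.17 ± 0.21, adjusted p = 0.545). The groups overlapped for Snrpn, and its annotated span of 158 kb, the longest of the 50, or the 10 kb downstream of it, holds 3 other rows of the table.

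The remaining groups held 1 called gene among 13, where 37.1% of all genes were called. Sf3b2, an SF3B subunit that contacts the RNA near the branch point, had 22.1, 18.5 and 21.98 CPM in OGD-empty and 31.2, 35.8 and 28.4 CPM in OGD-miR-29 (0.60 ± 0.21, adjusted p = 0.0269). All 3 OGD-miR-29 libraries were above all 3 OGD-empty libraries. The small subunit Sf3b5 had 0.91 ± 0.42 (adjusted p = 0.0917) and Sf3b1 -0.40 ± 0.21 (adjusted p = 0.145), so the complex did not share a direction. The SF3A subunits Sf3a1 and Sf3a3 had -0.46 ± 0.28 (adjusted p = 0.197) and 0.62 ± 0.32 (adjusted p = 0.126). Snrpa1 had 0.66 ± 0.39 (adjusted p = 0.185), U2af2 0.25 ± 0.22 (adjusted p = 0.39) and its small partner U2af1 0.49 ± 0.33 (adjusted p = 0.25).

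**Figure D2:**
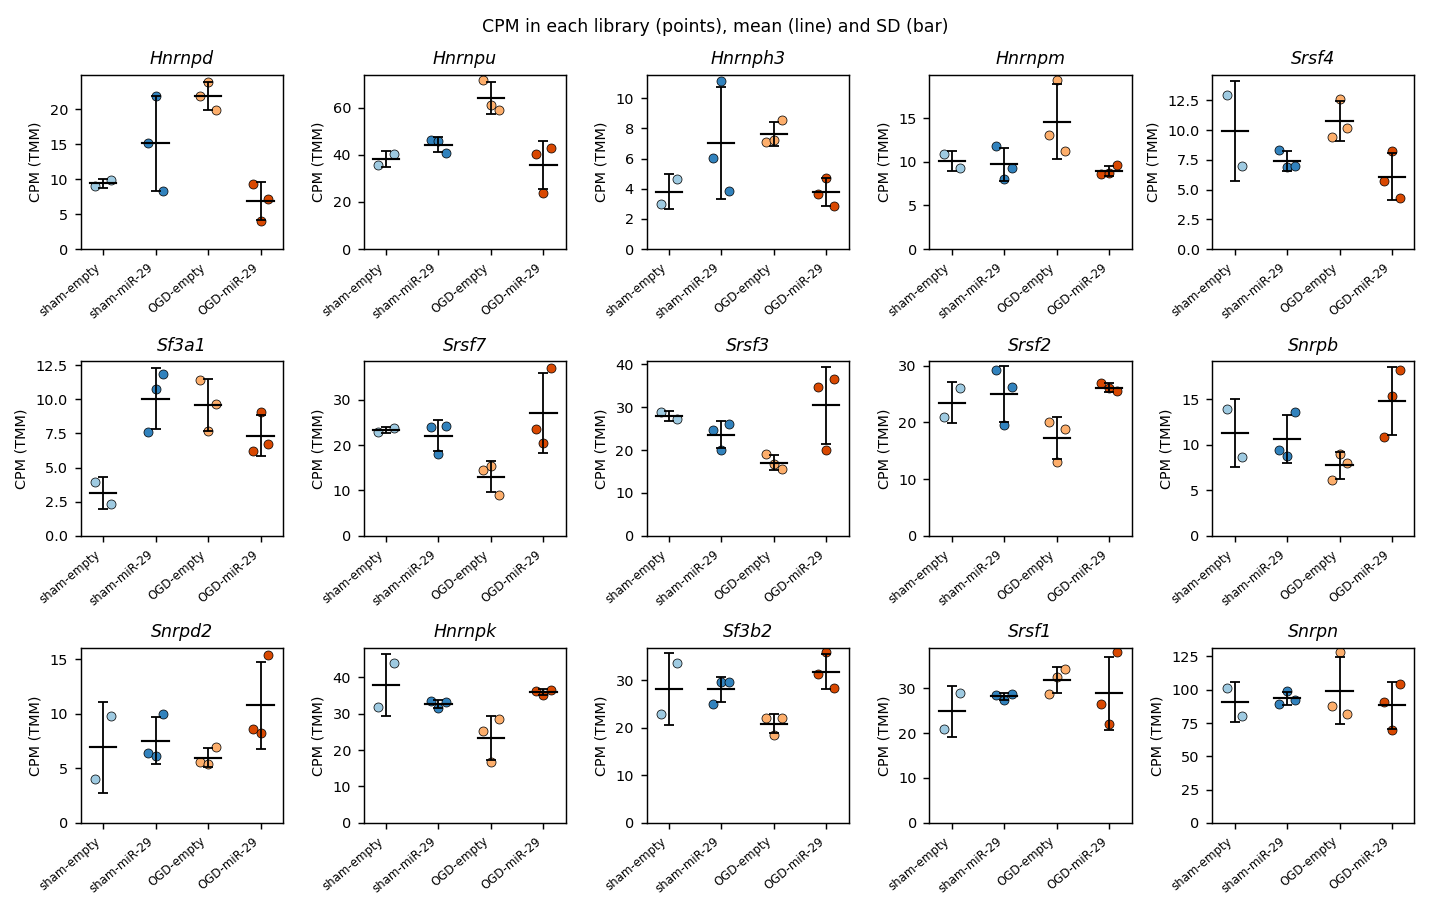
CPM (y axis, TMM-scaled, from 0) of 15 splicing factor genes in each of the 11 libraries, with groups on the x axis, points for libraries, and the mean and SD as a line and bar. For Hnrnpu the OGD-empty libraries (59.0 to 71.8 CPM) lie above every other library, and for Srsf7 they (9.11 to 15.4 CPM) lie below every other library.

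Summed over the 50 genes, the groups after OGD were not separated. The sums were 827 to 846 CPM in OGD-empty and 752 to 949 CPM in OGD-miR-29, against 854 to 862 CPM in sham-empty and 829 to 853 CPM in sham-miR-29. A difference in this total was not tested. The summed level of the 8 neuron markers did differ: 1031 to 1285 CPM in OGD-empty, 583 to 757 CPM in OGD-miR-29, 709 to 861 CPM in sham-empty and 712 to 962 CPM in sham-miR-29. The 3 measured microglial markers summed to 18.8 to 28.0 CPM in OGD-empty and 32.1 to 36.1 CPM in OGD-miR-29, and the 4 astrocyte markers to 35.2 to 48.2 and 39.9 to 42.1 CPM. The 2 oligodendrocyte markers summed to 5.87 to 6.43 and 6.73 to 10.6 CPM, and the 1 measured marker of cycling cells, Mki67, to 8.04 to 8.18 and 2.76 to 6.25 CPM. The OGD groups did not overlap for the neuron, microglial, oligodendrocyte and cycling markers and overlapped for the astrocyte markers. The part of these differences in the splicing factor values was not tested. The mitochondrial share was 57.6% to 76.4% in OGD-empty and 74.1% to 82.3% in OGD-miR-29. With the mitochondrial rows left out, 13 splicing factor genes were called, among them all 12, against a background of 37.2%.

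Support for the 12 calls was unequal over 20 alternative analyses. Hnrnpd and Hnrnpu were called in all 20, with log2 fold changes of -1.97 to -1.36 and -1.06 to -0.63. Srsf7 and Srsf3 were called in 18, and lost in the 2 with the trend on gene length removed, where their highest adjusted p values were 0.0558 and 0.0779. Snrpb was kept in 16, Sf3b2 in 14, Hnrnpk, Hnrnph3 and Srsf4 in 13, Srsf2 in 10, and Hnrnpm and Snrpd2 in 9. Leaving out 1 library at a time lost several calls. Snrpb was lost without OGD-empty replicate 1 (0.74, adjusted p = 0.0962) or OGD-miR-29 replicate 3 (0.78, adjusted p = 0.0627). Sf3b2 was lost without OGD-empty replicate 1 or 2 or OGD-miR-29 replicate 2 (0.50 to 0.66, adjusted p up to 0.0931). Hnrnpk was lost without OGD-empty replicate 2 (0.41, adjusted p = 0.13) or any OGD-miR-29 library (adjusted p up to 0.0575). Hnrnph3 was lost without sham-miR-29 replicate 1, OGD-empty replicate 1 or 3, or any OGD-miR-29 library (-1.13 to -0.87, adjusted p up to 0.121). Srsf4 needed sham-miR-29 replicate 1, OGD-empty replicates 2 and 3 and OGD-miR-29 replicates 1 and 3 (adjusted p up to 0.138 without them). Srsf2 needed sham-miR-29 replicate 3, OGD-empty replicates 2 and 3 and every OGD-miR-29 library (up to 0.182). Snrpd2 needed sham-miR-29 replicate 1, every OGD-empty library and OGD-miR-29 replicates 2 and 3 (up to 0.221). Hnrnpm needed both sham-empty libraries, sham-miR-29 replicate 1, OGD-empty replicate 2 and every OGD-miR-29 library (up to 0.118).

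Without OGD-empty replicate 2, the library with the lowest mitochondrial share, 7 genes were called, 4 higher and 3 lower (background 34.7%). These were 6 of the 12, namely Hnrnpd, Hnrnph3, Hnrnpu, Snrpb, Srsf3 and Srsf7, and Sf3b5.

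Gene length moved with this comparison across the table. The log2 fold change, OGD-miR-29 minus OGD-empty, had a Pearson correlation with the logarithm of the annotated gene span of -0.50 over 11929 genes and -0.33 over the 50 splicing factor genes (Spearman -0.58 and -0.36). These are correlations across genes of the same 6 libraries, given as a description. Over all genes the Pearson correlation was 0.45 for OGD-empty minus sham-empty and -0.26 for OGD-miR-29 minus sham-miR-29. It was 0.03 for sham-miR-29 minus sham-empty and -0.45 for the interaction. The splicing factor genes are short, with a median span of 12.01 kb against 22.97 kb. With the trend on length removed within each library, 9 of the 50 genes were called, 1 higher and 8 lower. The background was 23.8%, with 1509 genes higher and 1325 lower of 11929. Of the main 12 calls, 4 remained: Hnrnpd (-1.68 ± 0.29, adjusted p = 0.000179), Hnrnpu (-1.05 ± 0.19, adjusted p = 0.000192), Hnrnph3 (-1.30 ± 0.35, adjusted p = 0.00743) and Srsf4 (-0.78 ± 0.28, adjusted p = 0.0403). All 7 higher calls were lost, with Srsf7 at 0.60 ± 0.23 (adjusted p = 0.0516). Snrpn turned from -0.17 to 0.67 ± 0.18 (adjusted p = 0.00743). The other newly called genes were Hnrnpa2b1 (-0.86 ± 0.21, adjusted p = 0.00346), Hnrnpa3, Srsf11 and Srsf1, which holds a seed match, all lower. The correction thus removed every higher SR and Sm call of the uncorrected fit, whereas the lower hnRNP genes Hnrnpd, Hnrnpu and Hnrnph3 were called both ways. The loss of calls was not a loss of direction for the 6 Sm genes above 0 in the uncorrected fit. All 7 Sm values were above 0 after the correction (median 0.39), including Snrpn, which had changed sign and was the only 1 called. Of the 11 SR values, 4 were above 0 (median -0.33). The median over all genes was then 0.04.

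**Figure D3:**
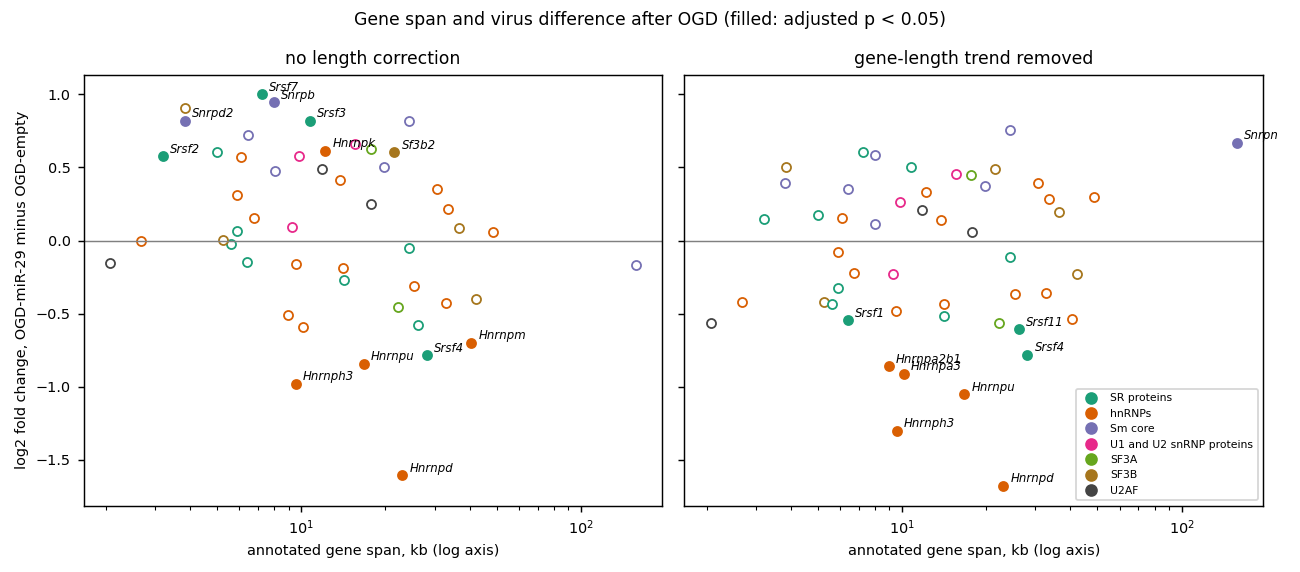
Log2 fold change, OGD-miR-29 minus OGD-empty (y axis), against annotated gene span in kb (x axis, log scale) for the 50 splicing factor genes, as fitted (left) and with the gene-length trend removed (right); filled points have an adjusted p under 0.05 and colours give the role. The filled points above 0 go from 7 on the left to 1, Snrpn, on the right, and those below 0 from 5 to 8.

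Several of these genes lie close to other rows, and the counting let neighbours share reads, as shown by mt-Tf and mt-Rnr1, which held 110844 and 110849 reads in sham-empty replicate 1. Within the gene and 10 kb downstream, 27 of the 50 genes (54.0%) had a neighbouring row with over 0.5 of their own count, against 59.7% of matched genes. Hnrnpd, Srsf3, Srsf7 and Snrpb had no such row at all. Cox20 lies beside Hnrnpu with 0.788 of its count and had nearly the same fold change after OGD, -0.87 ± 0.22 (adjusted p = 0.00524), so reads of these genes cannot be told apart. Gipr lies beside Snrpd2 with 1.12 times its count and had 1.11 ± 0.27 (adjusted p = 0.00417). Rufy2 beside Hnrnph3, with 1.78 times its count, had -0.73 ± 0.31 (adjusted p = 0.0713). Mettl23 beside Srsf2 had 1.05 times its count and a fold change of 0.46 ± 0.20 (adjusted p = 0.077), and Gm12992 beside Srsf4 had 0.640 of its count and -0.43 ± 0.34 (adjusted p = 0.329). Gm20507 beside Hnrnpm, with 0.365 of its count, had -1.14 ± 0.37 (adjusted p = 0.0213), and Mir7-1 beside Hnrnpk, with 0.477, had 0.59 ± 0.29 (adjusted p = 0.119). Pacs1 beside Sf3b2, with 0.307 of its count, had a value of the opposite sign, -0.93 ± 0.38 (adjusted p = 0.0639). Tbc1d10a beside Sf3a1 held 0.539 of its count and had -0.50 ± 0.44 for OGD-empty against sham-empty (adjusted p = 0.518). The values of Hnrnpu, Snrpd2, Hnrnph3, Srsf2, Srsf4 and Sf3a1, whose neighbours hold over 0.5 of their count, are uncertain for this reason. The same holds for other genes named here. Among them are Srsf5, Srsf11, Snrpa1, Snrpd1, Snrpd3, Sf3a3, U2af1, U2af2, Hnrnpa2b1 and Hnrnpa3, whose neighbours held 0.60 to 1.23 of their count.

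Whether the OGD response differed between the viruses was tested as an interaction, the OGD effect under miR-29 minus that under the empty virus. In 3 of the 50 genes it was lower, and in 0 higher, against 3.66% of all genes lower and 4.72% higher (8.38% in either direction). Hnrnpd had a response of 1.21 ± 0.41 under the empty virus and -1.04 ± 0.33 under miR-29, a difference of -2.24 ± 0.52 (adjusted p = 0.0166). For Sf3a1 the responses were 1.73 ± 0.46 and -0.49 ± 0.28, a difference of -2.23 ± 0.54 (adjusted p = 0.0179). The sham-empty libraries held 3.98 and 2.32 CPM of Sf3a1, from 4 reads each. Every other library was higher, with 6.25 to 9.06 CPM after OGD with miR-29 and 7.68 to 11.4 CPM in OGD-empty. The range in sham-miR-29 was 7.58 to 11.8 CPM. These higher groups overlapped, so the difference for Sf3a1 rests on the low sham-empty values. Hnrnpu had 0.75 ± 0.25 and -0.31 ± 0.21, a difference of -1.05 ± 0.33 (adjusted p = 0.0498). None of the 3 was called without replicate 1 or without replicate 2 of sham-empty, which leaves that group with a lone library assumed to vary like the others. With the replicate block 5 genes were called, the same 3 together with Hnrnph3 (-1.95 ± 0.59, adjusted p = 0.0314) and, as the only higher one, Srsf3 (1.14 ± 0.34, adjusted p = 0.0318). The background with the block was 15.4%, with 888 genes higher and 973 lower of 12119. An unadjusted p under 0.05 was reached by 10 of the 50 genes (20%), against 27.9% of all genes. The median interaction was 0.22 over the splicing factor genes and -0.03 over all genes.

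**Figure D4:**
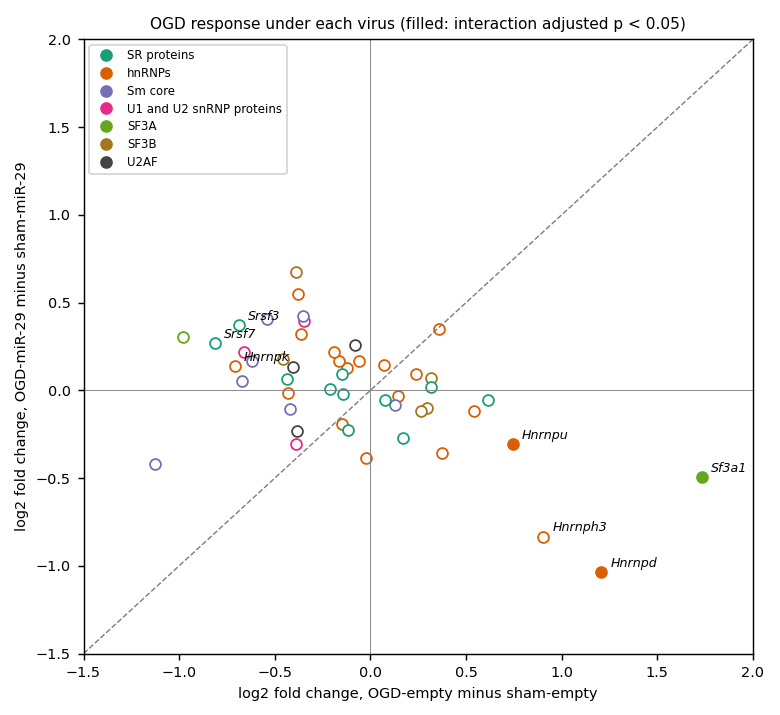
Log2 fold change after OGD under the empty virus (x axis, OGD-empty minus sham-empty) against that under miR-29 (y axis, OGD-miR-29 minus sham-miR-29) for the 50 splicing factor genes; the dashed line marks equal responses and filled points an interaction with adjusted p under 0.05. The filled genes Hnrnpd, Sf3a1 and Hnrnpu lie to the right of 0 and below it.

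Other genes of the splicing machinery were counted from lists that share no member with the 50. Of 54 measured further spliceosome components (63 listed), 10 rose and 5 fell with miR-29 after OGD, with a median log2 fold change of 0.28, where 37.1% of all genes were called. Plrg1 of the Prp19 complex (1.00 ± 0.30, adjusted p = 0.0143) and Prpf31 of the U4/U6 particle (0.98 ± 0.31, adjusted p = 0.0173) rose, and Gm15927 beside Prpf31 held 1.26 times its count. Prpf38b, a spliceosome component, fell (-1.03 ± 0.35, adjusted p = 0.0275). Of 13 measured SR protein kinases and SR-related genes (14 listed), 1 rose, Srpk3 (0.93 ± 0.33, adjusted p = 0.0359), and 3 fell: Srek1 (-1.43 ± 0.37, adjusted p = 0.00654), the kinase Prpf4b (-0.87 ± 0.29, adjusted p = 0.023) and Son (-0.57 ± 0.20, adjusted p = 0.0294). Ssr4 beside Srpk3 held 2.49 times its count and Atp5o beside Son 1.32 times, so the values of Prpf31, Srpk3 and Son are uncertain.

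Of 25 measured regulators of tissue-dependent splicing (27 listed, of which Rbfox3 is also a neuron marker above), 16 fell and 0 rose in this comparison, with a median of -0.85 (background 19.9% lower, 17.2% higher). They included the neuronal regulators Celf2 (-2.51 ± 0.60, adjusted p = 0.0132), Khdrbs2 (-2.29 ± 0.69, adjusted p = 0.0321), Rbfox1 (-2.21 ± 0.68, adjusted p = 0.0357) and Nova1 (-1.93 ± 0.45, adjusted p = 0.00342). These genes are long, with a median span of 124 kb. With the length trend removed, 8 fell and 1 rose among them (median -0.33). The further spliceosome components then had 3 higher and 4 lower and the SR-related genes 0 and 3. The background was 23.8%, with 1509 genes higher and 1325 lower of 11929. Under the empty virus, OGD gave 1 call over all 3 lists, a lower Ppih (-1.45 ± 0.34, adjusted p = 0.0197). Its neighbour Ybx1 held 5.30 times its count (background 5.09%, with 3.61% lower). The median of the tissue-dependent regulators was 0.69 with 0 called. With the replicate block 5 of these 25 rose (median 0.75, 24 values above 0) and 2 spliceosome components fell. The background was then 11.3%, with 689 genes higher and 680 lower of 12119. By DESeq2, 3 of the 20 regulators given an adjusted p rose (background 11%, with 330 genes higher and 386 lower of 6492). The interaction was called for Ppih (1.76 ± 0.43, adjusted p = 0.0198), Prpf31 (1.66 ± 0.48, adjusted p = 0.0361), Nova2 (-2.04 ± 0.52, adjusted p = 0.0213) and Mbnl2 (-1.28 ± 0.36, adjusted p = 0.0338), against a background of 8.38%. Gm26821 beside Nova2 held 0.571 of its count. With the replicate block the interaction was called for 5 spliceosome components higher and 1 lower and for 6 tissue-dependent regulators lower. The background was 15.4%, with 888 genes higher and 973 lower of 12119. By DESeq2 the interaction was called for 5 of 20 regulators lower (background 16.7%, with 482 genes higher and 561 lower of 6256).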

How the data were processed

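Total RNA was depleted of ribosomal RNA and made into TruSeq libraries, per the labels' protocols. The authors deposited read counts per gene symbol, with no normalization. The submitters' processing notes name the tools STAR 2.5.0a, featureCounts 1.4.3-p1 and edgeR and the build mm10. Their annotation, strand and counting region are not given in the sources used here. Further, 2 deposited tables of comparisons hold, per the file headers, each gene's log2 fold change, log2 CPM, likelihood ratio (a score), p-value and FDR.

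The column for sham-empty replicate 3 was left out. Its sum was 22859 where the other libraries held 1337564 to 6616920 (Spearman 0.0438 to 0.0978), and 92.5% of its values over 11952 matched genes equalled a tally of GENCODE M21 genes on that gene's strand, from its start to 10 kb past its end. Sample columns left unmapped: 0.

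Counts were fitted in 1 model of 4 group means with edgeR 4.0.16 (R 4.3.3; TMM, filterByExpr, robust quasi-likelihood F test), keeping 12119 of 12145 genes, with Benjamini-Hochberg adjustment over all of them. SE was obtained as log2 fold change over √F. The fit was tested on simulated data. DESeq2 1.42.0 and limma 3.58.1 (voom) served as alternatives. Same-numbered cultures were dissected on the same day, per the design text. Their deviations from group means correlated at -0.0898 to 0.232 (15 pairs, median 0.0067), against -0.245 to 0.201 in 30 other pairs. Genes named by rule are the called ones and the most abundant of each role, and at most 4 called genes of each other list per comparison. Further uncalled genes, such as Snrpd3, Srsf11, Snrpd1 and Sf3b5, were named after their values were seen. Genes and lists were chosen with earlier results of these data known. Low counts limit precision. Each p-value sets a difference against a spread between cultures that was estimated over all 4 groups with information shared between genes. Leaving out a sham library could therefore change calls between the OGD groups. A gene that the naming rule picks from the lists of other genes is not reported here.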

Additional observations from a re-analysis of the deposited data

Results flagged for a closer look

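The OGD effect differed between the miR-29 and the empty virus in 3 of the 50 splicing factor genes (6%), against 8.38% of all genes. The test was of the difference itself (edgeR's quasi-likelihood test). The differences in log2 fold change were -2.24 for Hnrnpd (adjusted p = 0.0166), -2.23 for Sf3a1 (adjusted p = 0.0179) and -1.05 for Hnrnpu (adjusted p = 0.0498). Sf3a1 had 4 reads in each sham-empty library, and only that group lay apart from the others in CPM. Reads of Hnrnpu and its neighbour Cox20 cannot be told apart. Hnrnpd and Sf3a1 were lost in the 2 analyses that left out a sham-empty library, of the 19 and 18 that gave a value. Hnrnpu was kept in 10 of 19, with adjusted p values up to 0.16.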

How the results depend on the processing

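The number of splicing factor genes called for OGD-miR-29 against OGD-empty was 12 in the main analysis (37.1% of all genes called) and 5 by the DESeq2 Wald test (3 higher, 2 lower; 29% of all genes). Leaving out each library gave 6 to 13 (26.4% to 37.4% of all genes), with 7 without OGD-empty replicate 2 and 6 without OGD-miR-29 replicate 2 or 3. It was 9 with the gene-length trend removed, 1 higher and 8 lower in place of 7 and 5 (23.8% of all genes, with 1509 higher and 1325 lower). For OGD-empty against sham-empty the count was 1 (5.09% of all genes), and 0 by DESeq2, by limma-voom and with only the compared groups in the fit (11%, 3.94% and 2.17%). DESeq2 gave no adjusted p for Sf3a1, the gene called, so it could not keep or lose that call. It was 2 with the replicate block, 2 with the gene-length trend removed and 3 with both (11.3%, 3.09% and 4.98%). Leaving out a library gave 0 to 2 (0.0988% to 8.16% of all genes): 0 without either sham-empty library or OGD-empty replicate 1 or 3, and 2 without OGD-empty replicate 2. For the interaction it was 3 (8.38% of all genes), 5 with the replicate block (15.4%), and 0 to 4 when a library was left out (0.527% to 12.6%), 0 without either sham-empty library. The block added or removed no call in the other comparisons, and 0 genes stayed 0 for OGD-miR-29 against sham-miR-29 and sham-miR-29 against sham-empty in every analysis run. DESeq2 gave no adjusted p for 18 of the 50 genes, Sf3a1 among them, for OGD-empty against sham-empty and for the interaction.

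Values that changed sign belonged to genes not called in the main analysis. For OGD-miR-29 against sham-miR-29, Srsf1 went from 0.019 to -0.023 (limma-voom), -0.073 (length trend removed with block), -0.084 (length trend removed) and -0.00486 (compared groups only). Sf3b1 in sham-miR-29 against sham-empty went from -0.0052 to 0.0094 without mitochondrial rows and 0.0032 with the compared groups only. Snrpn, whose span is long, changed sign with the length trend removed, with and without the block. Its values were -0.55 and -0.49 for OGD-empty against sham-empty, 0.11 and 0.12 for OGD-miR-29 against sham-miR-29, 0.65 and 0.67 for OGD-miR-29 against OGD-empty, 0.65 and 0.61 for the interaction, and -0.0051 with the block for sham-miR-29 against sham-empty. The cause was not tested.

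Leaving out each library in turn gave ranges that crossed 0. For OGD-miR-29 against sham-miR-29 these were -0.24 to 0.13 (Sf3b1), -0.22 to 0.058 (Snrpn) and -0.21 to 0.17 (Srsf1). For sham-miR-29 against sham-empty they were -0.094 to 0.15 (Sf3b1), -0.30 to 0.38 (Snrpa1), -0.092 to 0.23 (Snrpn), -0.021 to 0.46 (Srsf1) and -0.47 to 0.059 (U2af2). For OGD-empty against sham-empty they were -0.79 to 0.11 (Snrpa1) and -0.032 to 0.31 (Snrpn), and for OGD-miR-29 against OGD-empty -0.30 to 0.016 (Snrpn) and -0.37 to 0.00545 (Srsf1). Of the other alternatives for named genes, 801 kept direction and side of the threshold, 86 lost the call and 6 gained it. The 801 include genes not called in the main analysis that stayed uncalled, whereas the 86 all concern main calls. These numbers therefore do not give the share of calls that were kept. Depth limits the low genes most, such as Sf3a1 and Hnrnph3, with 3 to 8 reads in the sham-empty libraries.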
